A study of Mus musculus with 2 samples.

Results

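Antibody heavy chain variable genes (Ighv) were followed cell by cell in eYFP+ cells sorted live from the stromovascular fraction (SVF) of perigonadal white adipose tissue (gWAT). The members were all 185 rows of the count tables whose symbol starts with Ighv, of 32285 rows in all, and 88 of them had at least 1 unique molecular identifier (UMI, a count of 1 captured mRNA molecule) in a cell that passed quality control. Cells came from male Cyp1a1Cre x R26LSL-eYFP mice, in which Cre driven by the Cyp1a1 promoter permanently switches on eYFP, which makes eYFP a lasting record of past or present Cyp1a1 activity. For 12 weeks the mice ate food with 10% (LFD) or 60% (HFD) of fat. Every mouse, those of the LFD control group included, also got 10 mg/kg of FICZ, which binds the aryl hydrocarbon receptor (AHR), 5 days ahead of the sort. There was 1 library per diet, from pooled mice with no record of which cell came from which mouse, so a clone, a mouse and a diet cannot be told apart and no test between diets was made.

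A B cell assembles its heavy chain gene once, by joining a variable (V) segment to D and J segments upstream of the constant gene Ighm, and its light chain from a kappa (Igkv, Igkc) or lambda (Iglv, Iglc) locus. All descendants of that cell carry the same heavy chain, so the V segment seen in a plasma cell, the antibody-secreting end stage of the lineage, points to the family it came from. The segment Ighv11-2 joined with the kappa segment Igkv14-126, and Ighv12-3 joined with Igkv4-91, are textbook pairs of B-1 cells, an innate-like lineage of body cavities and fat whose natural IgM binds phosphatidylcholine.

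The segments that the results turn on are shown here as the last 300 bases of their GENCODE M21 transcripts (mouse GRCm38, the assembly that mm10 names), 5′ to 3′. All lie on the minus strand and are annotated as functional V genes: Ighv11-2 at chr12:114048241-114048812, its nearest relative Ighv11-1 at chr12:113981879-113982341, Ighv12-3 at chr12:114366521-114366954 and Ighv1-26 at chr12:114788372-114788805. Capitals mark bases that differ from Ighv11-2 in a pairwise alignment or have no partner in it.
Ighv11-2: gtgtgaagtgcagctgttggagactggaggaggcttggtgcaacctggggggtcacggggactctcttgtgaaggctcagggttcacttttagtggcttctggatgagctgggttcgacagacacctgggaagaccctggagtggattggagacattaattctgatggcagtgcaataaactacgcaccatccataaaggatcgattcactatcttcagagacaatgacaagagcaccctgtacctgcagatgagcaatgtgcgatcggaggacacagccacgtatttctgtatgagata
Ighv11-1: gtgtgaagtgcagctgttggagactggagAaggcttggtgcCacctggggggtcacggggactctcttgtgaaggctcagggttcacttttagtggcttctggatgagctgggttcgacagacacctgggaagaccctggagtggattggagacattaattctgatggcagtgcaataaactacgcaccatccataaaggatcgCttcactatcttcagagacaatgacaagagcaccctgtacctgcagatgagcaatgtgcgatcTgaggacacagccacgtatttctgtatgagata
Ighv12-3: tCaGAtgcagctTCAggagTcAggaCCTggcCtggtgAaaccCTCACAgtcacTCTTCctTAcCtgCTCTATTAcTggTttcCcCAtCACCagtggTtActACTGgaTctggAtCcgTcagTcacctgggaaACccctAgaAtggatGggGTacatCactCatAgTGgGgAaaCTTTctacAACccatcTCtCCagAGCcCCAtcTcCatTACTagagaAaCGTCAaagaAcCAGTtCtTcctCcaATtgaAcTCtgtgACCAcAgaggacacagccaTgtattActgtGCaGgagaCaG
Ighv1-26: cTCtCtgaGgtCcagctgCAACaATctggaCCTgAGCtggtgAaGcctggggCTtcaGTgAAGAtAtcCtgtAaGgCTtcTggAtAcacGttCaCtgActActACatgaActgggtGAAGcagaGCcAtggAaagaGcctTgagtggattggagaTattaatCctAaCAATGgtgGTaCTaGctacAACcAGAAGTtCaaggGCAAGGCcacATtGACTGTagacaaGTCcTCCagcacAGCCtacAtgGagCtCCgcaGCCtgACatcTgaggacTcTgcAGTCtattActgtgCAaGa
Ighv11-1 was 98.9% identical to Ighv11-2, with 4 differing bases of 353 aligned, and the next most similar row, Ighv5-12, was 75.4% identical. Reads of Ighv11-1 and Ighv11-2 can therefore be confused with each other, whereas Ighv12-3 (60.8%) and Ighv1-26 (60.7%) stood well apart from Ighv11-2.

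After quality control 10218 LFD and 8545 HFD cells remained, with a median of 10633.5 and 13224 UMIs, and 22 barcodes occurred in both libraries. Clusters made without immunoglobulin genes gave 399 LFD and 1405 HFD plasma-like cells, with Jchain, Mzb1, Eaf2 and Sec11c among the leading genes of both their clusters, and 1143 LFD and 821 HFD B-like cells, with Ms4a1, Cd79a, Cd79b and Bank1 among theirs. The plasma-like cells, called plasma cells below, comprised a cluster without (190 LFD and 812 HFD cells) and a cluster with (209 and 593) high levels of cycling markers such as Mki67. Only 109 LFD and 341 HFD plasma cells had no UMI of Mki67 or Top2a, so cells of the first cluster carried such UMIs too. A further cluster of 76 LFD and 102 HFD cells with a median of 29765.5 UMIs carried plasma markers together with mesothelial and stromal markers and was kept out of the plasma class by a limit set after the clusters had been seen.

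Ighv transcripts were concentrated in plasma cells. Ighv UMIs numbered 482 in LFD and 2858 in HFD plasma cells, or 92.0 counts per 1000000 UMIs of the class (CPM, 95% Poisson interval 84.0 to 101) and 135 (130 to 140). In B cells the level was 6.50 (4.50 to 9.09) in LFD and 7.24 (4.89 to 10.3) in HFD, and in cells outside the B lineage 0.426 (0.307 to 0.576) and 1.72 (1.46 to 2.03). The 3′ chemistry reads the end of the message farthest from the V segment. Any Ighv UMI was found in 54.4% of LFD (95% Clopper-Pearson interval 49.4 to 59.4%) and 68.9% of HFD plasma cells (66.4 to 71.3%), and the highest number in a cell was 14 in LFD and 30 in HFD. All intervals here and below cover counting error only.

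Ighv11-2 made up most of what was seen. It had 322 UMIs in 121 LFD plasma cells, a level of 61.5 CPM (54.9 to 68.5), and 2467 UMIs in 765 HFD plasma cells, a level of 116 (112 to 121). The other Ighv rows together had 160 UMIs in LFD (30.5 CPM, 26.0 to 35.7) and 391 in HFD (18.5, 16.7 to 20.4). The Ighv11-2 level was thus higher in the HFD library and the level of all other segments higher in the LFD library, both beyond counting error. By family, the Ighv11 family (Ighv11-1 and Ighv11-2) took 66.8% of Ighv UMIs in LFD and 87.4% in HFD plasma cells. The Ighv1 family, by far the largest with 93 rows, took 7.68% and 4.79%, and Ighv9, Ighv2 and Ighv12 took 6.02%, 4.98% and 2.49% in LFD and 0.525%, 1.92% and 1.78% in HFD.

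**Figure D1:**
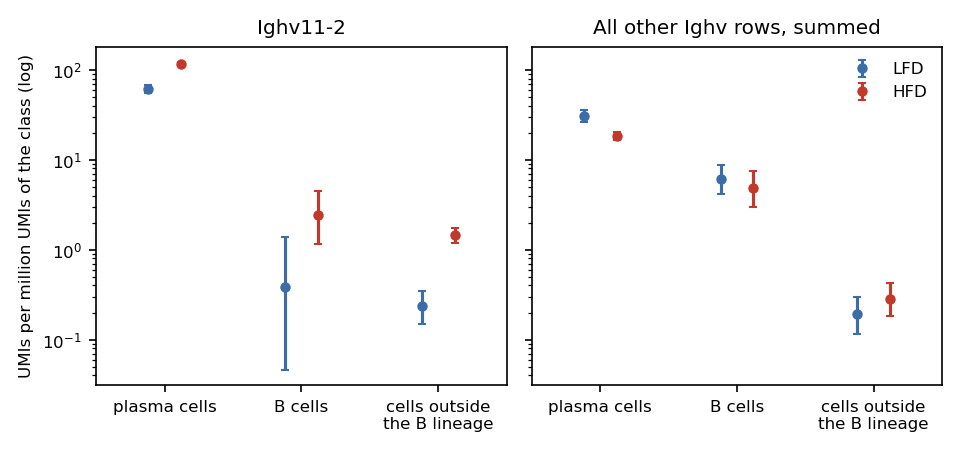
Level in CPM of the class (log axis) for Ighv11-2 and for all other Ighv rows summed, in plasma cells, B cells and cells outside the B lineage of each library, with 95% Poisson intervals. Ighv11-2 reached 61.5 in LFD and 116 in HFD plasma cells and was near the level of other cells in B cells, whereas the other rows stood above that level in B cells too.

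The leading gene of a cell was defined as the Ighv gene holding over 50% of its Ighv UMIs, in cells with at least 3 of them. That gave a leading gene to 62 LFD plasma cells (15.5%, 12.1 to 19.5%) and 360 HFD plasma cells (25.6%, 23.4 to 28.0%), and 5 HFD cells had enough UMIs but no leading gene. Another 44 LFD and 240 HFD plasma cells had 2 Ighv UMIs and fell just short. Ighv11-2 led 44 of 62 assigned cells in LFD (71.0%, 58.1 to 81.8%) and 330 of 360 in HFD (91.7%, 88.3 to 94.3%). The intervals of the libraries did not overlap, but with 1 library per diet the difference has no replicate check. Among plasma cells with at least 2 Ighv UMIs, 91.5% in LFD (84.5 to 96.0%) and 90.7% in HFD (88.1 to 92.9%) had UMIs of 1 gene only.

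With at least 1 Ighv UMI, a looser rule added after seeing how sparse the UMIs were, Ighv11-2 led 119 of 214 LFD cells (55.6%, 48.7 to 62.4%) and 749 of 952 HFD cells (78.7%, 75.9 to 81.2%). With at least 10 UMIs it led 5 of 5 and 32 of 32. Under the main rule the median Ighv UMI number of a cell was 4 in LFD and 5 in HFD where Ighv11-2 led, 4 for Ighv9-3 and 3 for Ighv2-2 in LFD, and 3 for Ighv12-3 in HFD. Of the cells led by Ighv11-2 at 1 or more UMIs, 44 of 119 in LFD and 330 of 749 in HFD reached 3. Of those led by another gene, 18 of 95 and 30 of 203 did, so the main rule favoured Ighv11-2. The share led by Ighv11-2 therefore rose with the UMI minimum, while the HFD share was above the LFD share at both lower minimums. With every plasma cell thinned to 5000 UMIs (14 LFD and 29 HFD cells were shallower and left out), the shares at 1 or more Ighv UMIs were 59.0% (49.7 to 67.8%) and 82.8% (79.3 to 85.9%).

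**Figure D2:**
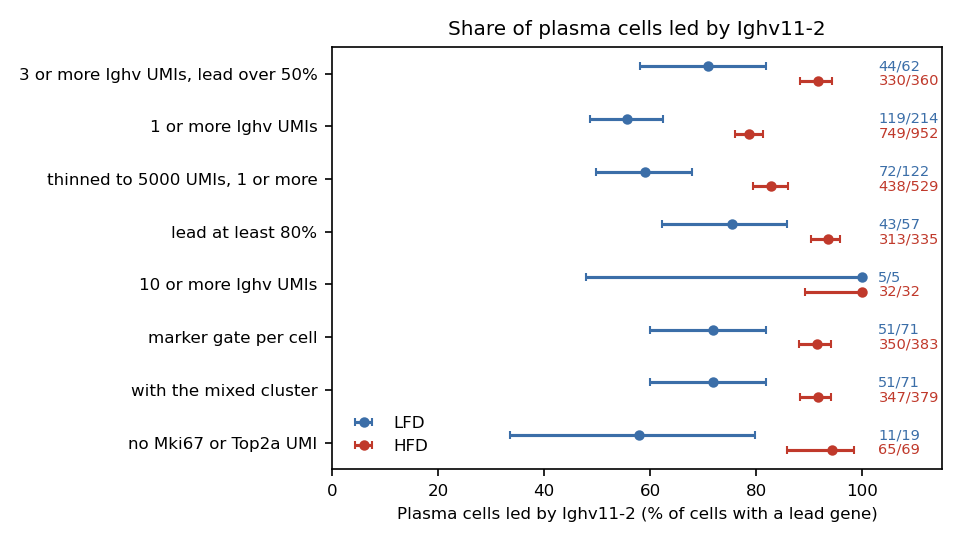
Percentage of plasma cells with a lead gene that were led by Ighv11-2 (x axis) under each rule (y axis), with 95% Clopper-Pearson intervals and the cell numbers at the right. HFD lay above LFD under each rule except at 10 or more UMIs, where Ighv11-2 led all 5 LFD and all 32 HFD cells.

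The order of the other leading genes differed between the libraries. In LFD, Ighv9-3 led 7 of the 62 cells (11.3%, 4.66 to 21.9%), Ighv2-2 led 4 (6.45%, 1.79 to 15.7%), Ighv1-53 and Ighv3-6 led 2 each, and Ighv14-2, Ighv5-16 and Ighv7-3 led 1 each. In HFD, Ighv12-3 led 5 of the 360 cells (1.39%, 0.452 to 3.21%), Ighv2-6 led 3, Ighv1-26, Ighv1-64, Ighv1-78, Ighv11-1, Ighv3-6 and Ighv4-1 led 2 each, and 10 further genes led 1 each. In either order below Ighv11-2 the intervals of neighbours overlapped. Under the looser rule Ighv12-3, the other phosphatidylcholine-associated segment, came second in both libraries, with 11 of 214 LFD cells (5.14%, 2.59 to 9.01%) and 33 of 952 HFD cells (3.47%, 2.40 to 4.83%). Ighv1-26 led 29 HFD cells (3.05%, 2.05 to 4.35%) but 1 LFD cell, and Ighv11-1 led 15 HFD cells (1.58%, 0.884 to 2.59%) and no LFD cell. Of the 19 HFD plasma cells with an Ighv11-1 UMI, 15 had no UMI of Ighv11-2.

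Diversity was low in both libraries and lower in HFD. The effective number of leading genes (inverse Simpson index, the number of equally common genes that would give the same chance of a match) was 1.91 in LFD, with 8 genes leading, and 1.19 in HFD, with 19. Drawing 62 cells from HFD would give 5.66 leading genes on average, against the 8 in LFD. A random pair of assigned cells shared its leading gene in 51.6% of draws in LFD and 84.0% in HFD. Under the looser rule 37 genes led in LFD and 54 in HFD, the effective numbers were 3.13 and 1.61, and 214 HFD cells would hold 24.4 leading genes. Once the cells led by Ighv11-2 were set aside, HFD was no longer the less diverse library by most measures. Under the main rule the remaining 18 LFD cells had 7 leading genes with an effective number of 4.26, and the remaining 30 HFD cells had 18 with 13.2, or 13.0 genes when drawn down to 18 cells. Under the looser rule the remaining 95 LFD cells had 36 leading genes with an effective number of 18.9, and the remaining 203 HFD cells had 53 with 15.2, or 36.2 genes when drawn down to 95 cells. The Shannon form of the effective number, which gives rare genes more weight, was 5.32 in LFD and 15.6 in HFD under the main rule and 25.4 and 27.1 under the looser rule, so that at 1 or more UMIs the order of the libraries differed between the indices.

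Cells led by segments other than Ighv11-2 were spread along the locus. When the stretch of chromosome 12 that holds the Ighv rows (113572927 to 116010093) was cut into 3 equal parts, the part at the low-coordinate end, next to the D and J segments, held 68 rows and took 57 of the 95 such LFD cells and 116 of the 203 such HFD cells. The middle part, with 72 rows, took 22 and 47, and the far part, with 45 rows, took 16 and 40. Of all Ighv UMIs, 99.6% fell on rows annotated as functional V genes and 0.390% on the 70 pseudogene rows, of which 10 had a UMI.

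**Figure D3:**
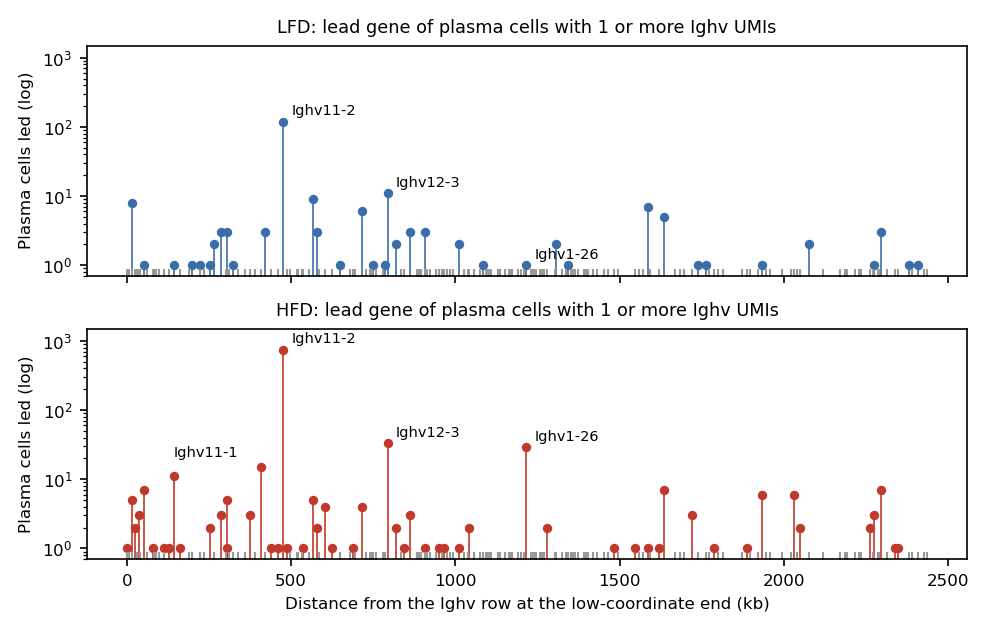
Number of plasma cells led by each Ighv gene (log axis, 1 or more Ighv UMIs) against the distance of the gene from the Ighv row at the low-coordinate end of the locus, in kb. Grey ticks are rows that led no cell. Ighv11-2 led 119 LFD and 749 HFD cells, far above Ighv12-3 (11 and 33), while Ighv1-26 led 29 cells in HFD and 1 in LFD.

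B cells gave no leading gene under the main rule. None of 1143 LFD B cells (a limit of 0.322% by the upper Clopper-Pearson bound) and none of 821 HFD B cells (0.448%) reached 3 Ighv UMIs, at a median depth of 4045 and 4226 UMIs. At least 1 Ighv UMI was found in 33 LFD cells (2.89%, 2.00 to 4.03%) and 28 HFD cells (3.41%, 2.28 to 4.89%), against 0.395% and 1.58% of cells outside the B lineage, whose median depth was 11289.5 and 14206 UMIs. These few cells were diverse: 24 genes led the 33 LFD cells, with Ighv8-8 in 5 and Ighv7-3 in 3, and 19 genes led the 28 HFD cells, with Ighv11-2 in 9, Ighv10-1 in 2 and all others in 1. The effective number was 16.8 in LFD and 7.69 in HFD, and without the cells led by Ighv11-2 it was 15.8 (31 cells) and 17.2 (19 cells).

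Ighv11-2 itself could not be told from background in B cells. It was seen in 2 LFD and 9 HFD B cells, at 0.382 CPM (0.0463 to 1.38) and 2.41 (1.16 to 4.44), against 0.234 and 1.44 in cells outside the B lineage, a ratio of 1.64 (0.187 to 6.63) in LFD and 1.68 (0.784 to 3.19) in HFD. All other Ighv rows together stood 31.7-fold (17.4 to 59.2) above those cells in LFD B cells and 17.0-fold (8.93 to 32.2) in HFD B cells. In plasma cells the Ighv11-2 ratio was 263 (172 to 421) and 80.8 (67.3 to 97.7). Ighv11-2 UMIs outside the B lineage were thus more common in the HFD library.

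Light chains separated the cells led by Ighv11-2 from the others. The kappa leading gene was found by the same rule, at least 3 Igkv UMIs and over 50% of them. In LFD, all 38 Ighv11-2-led cells with a kappa leading gene were led by Igkv14-126, and in HFD 284 of 290 were (97.9%). Among cells led by another Ighv gene Igkv14-126 led 1 of 13 in LFD and 5 of 26 in HFD (19.2%), and of the 30 such HFD cells at 1 or more Ighv UMIs that Igkv14-126 led, 15 were led by Ighv11-1. Read from the light chain under the looser rule, 91 of 92 LFD cells (98.9%) and 605 of 635 HFD cells (95.3%) with Igkv14-126 leading were led by Ighv11-2, against 3 of 63 (4.76%) and 15 of 129 (11.6%) where another Igkv gene led. Plasma cells without any Ighv UMI, which the heavy chain could not place, had Igkv14-126 in the lead in 38 of 77 LFD (49.4%) and 151 of 241 HFD cells (62.7%).

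Other segments had partners of their own. Every Ighv11-1-led cell with a kappa leading gene carried Igkv14-126 (15 of 15 in HFD, 78.2 to 100%), the partner of its near-identical neighbour. Ighv12-3 went with Igkv4-91 in 7 of 7 LFD cells (59.0 to 100%) and 23 of 24 HFD cells (95.8%, 78.9 to 99.9%). Ighv1-26 also went with Igkv4-91, in 26 of 27 HFD cells (96.3%, 81.0 to 99.9%), so that the Igkv4-91-led HFD cells divided mainly into 23 with Ighv12-3 and 26 with Ighv1-26, of 60 with a heavy leading gene. All 7 such LFD cells were led by Ighv12-3. Ighv1-53 was seen with Igkv4-58 in 5 of 5 LFD cells (47.8 to 100%) and Ighv1-78 with Igkv3-2 in 6 of 6 HFD cells (54.1 to 100%). By contrast, Ighv9-3 in LFD was split evenly between Igkv12-44 and Igkv4-70, with 3 cells each. Cells of a pair can be descendants of 1 cell, and the 3′ reads do not cover the joined sequence that would show it.

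**Figure D4:**
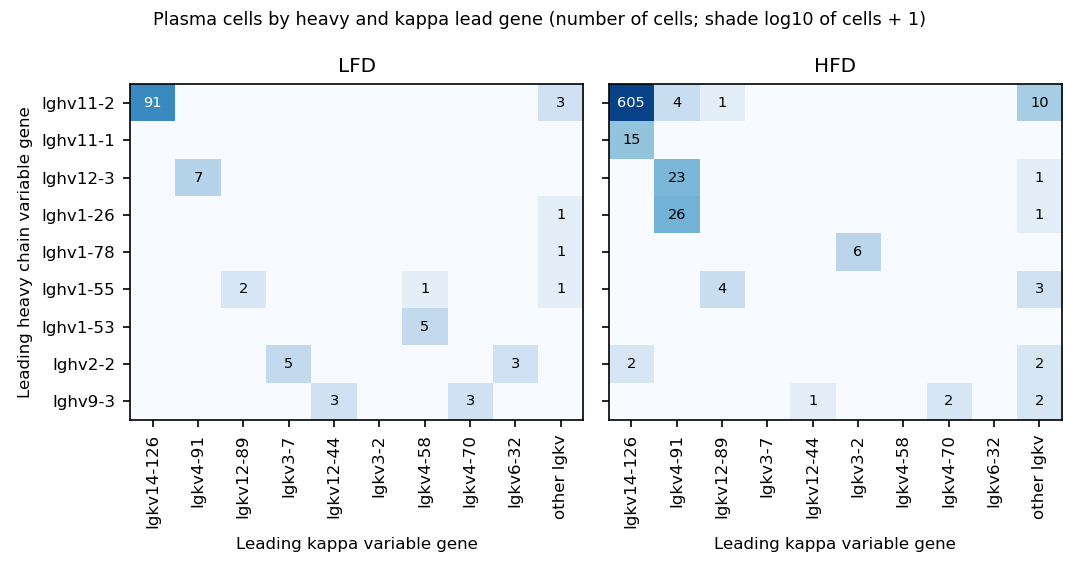
Number of plasma cells with each combination of heavy (y axis) and kappa (x axis) leading gene in LFD and HFD, shaded by log10 of the number plus 1. Ighv11-2 sat almost wholly with Igkv14-126 (91 LFD and 605 HFD cells), Ighv11-1 with the same gene (15 HFD cells), and Ighv12-3 and Ighv1-26 with Igkv4-91 (23 and 26 HFD cells).

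A lambda constant gene split the HFD cells led by Ighv11-2. Iglc1 UMIs per cell ran from 0 to 57 with a median of 8 in the 44 LFD cells, and from 0 to 3509 with a median of 24.5 and an upper quartile of 863.75 in the 330 HFD cells. At least 100 Iglc1 UMIs, a limit chosen after the values had been seen, were present in 139 of the HFD cells (42.1%, 36.7 to 47.7%) and in none of the LFD cells (up to 8.04%), and 5 HFD cells lay between 50 and 200. Those 139 cells were kappa cells too: they had a median of 3959 Igkc UMIs, Igkv14-126 led 126 of the 128 with a kappa leading gene, and none had more Iglc1 than Igkc. The 191 HFD cells below the limit had a median of 3457 Igkc UMIs and Igkv14-126 in the lead in 158 of 162. Of the 139 and 191 cells, 2 and 3 were among those with the highest doublet scores, and the median depth was 16850 and 15291 UMIs. Under the looser rule the shares were 322 of 749 in HFD (43.0%, 39.4 to 46.6%) and 3 of 119 in LFD (2.52%, 0.523 to 7.19%), against 20 of 203 (9.85%) and 10 of 95 (10.5%) where another gene led, and 0 of 15 Ighv11-1-led and 0 of 29 Ighv1-26-led HFD cells. Plasma cells without any Ighv UMI reached the limit in 121 of 437 in HFD (27.7%) and 10 of 182 in LFD (5.49%), and all plasma cells in 468 of 1405 (33.3%) and 23 of 399 (5.76%). The rows of the lambda V gene Iglv1 had similar medians on both sides of the limit, 14 and 15 UMIs, and Iglv1 UMIs were found in 93.2% to 100% of the cells of every group with a leading gene under the main rule.

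The heavy chain class hardly varied. Ighm, the constant gene of IgM, led in all 44 LFD and all 330 HFD cells led by Ighv11-2, and in 17 of 18 LFD and all 30 HFD cells led by other genes. The remaining cell, in LFD, was led by Igha, the constant gene of IgA. Over all plasma cells Ighm led 391 of 399 in LFD and 1398 of 1405 in HFD, Igha led 6 and 7, and Ighg2b and Ighg3 led 1 LFD cell each.

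What else the Ighv11-2-led plasma cells expressed was tested on UMIs summed per library and leading group, which gave 4 sums: 44 and 18 cells in LFD and 330 and 30 in HFD. The Ighv rows, which had chosen the groups, were left out. The groups were alike in depth (median 14699.5 and 13967.5 UMIs in LFD, 15801.5 and 16450.5 in HFD), mitochondrial share (3.16% to 3.37% over the groups) and share of UMIs on immunoglobulin rows (28.4% and 27.3% in LFD, 36.3% and 35.1% in HFD). Cells of the cycling cluster made up 47.7% and 38.9% in LFD and 42.7% and 63.3% in HFD, in opposite orders, and the part of this in the results was not tested beyond leaving out cells with Mki67 or Top2a. That left 11 Ighv11-2-led and 8 other cells in LFD and 65 and 4 in HFD, too few to show the part of cycling. By edgeR's quasi-likelihood test with library as a term and Benjamini-Hochberg adjustment, 11 of 4273 genes tested were higher (0.257%) and 12 were lower (0.281%) in Ighv11-2-led cells at an adjusted p under 0.05, which is 0.538% in either direction, and 271 (6.34%) had an unadjusted p under 0.05. With only 4 sums and library as a term, the spread of a gene was estimated largely from that of all genes. The SEs and p-values therefore do not measure how far the 2 libraries differed for a gene. The gene Slpi, for example, had log2 ratios of -3.07 in LFD and 0.55 in HFD but an SE of 0.16. Cells of 1 library also share their mice.

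The light chain genes gave the largest differences. Igkv14-126 stood at 424 CPM in Ighv11-2-led and 17.9 in other LFD cells, and at 455 and 63.8 in HFD (log2 fold change 3.36, SE 0.21, edgeR adjusted p = 1.24e-51), and UMIs of it were found in 44 of 44, 1 of 18, 322 of 330 and 6 of 30 cells. Iglc2, a lambda constant gene, was lower in Ighv11-2-led cells, 945 against 19769 CPM in LFD and 744 against 8276 in HFD (log2 fold change -3.84, SE 0.17, edgeR adjusted p = 5.71e-109). In the other cells 73.0% of the LFD and 65.5% of the HFD Iglc2 UMIs came from 1 cell, and with each gene's top cell left out of each group the log2 fold change was -2.43. Lambda outweighed kappa in none of the Ighv11-2-led cells, in 2 of 18 other LFD cells and in 3 of 30 other HFD cells. Iglc3, whose sequence is close enough to that of Iglc2 for reads to be shared, was lower only through HFD, with 416 against 431 CPM in LFD (ratio 0.965, 0.777 to 1.20) and 583 against 4395 in HFD. In the other HFD cells 56.6% of the Iglc3 UMIs came from 1 cell, and without the top cells the log2 fold change was -1.53. Iglc3 was not called by DESeq2 or at 1 or more Ighv UMIs (edgeR adjusted p = 0.0776).

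Among genes outside the antibody loci, Zcwpw1, which encodes a reader of histone methylation best known from meiosis, stood at 394 CPM in Ighv11-2-led and 133 in other LFD cells, and at 345 and 165 in HFD (log2 fold change 1.35, SE 0.17, edgeR adjusted p = 2.22e-12). It was among the 10 leading genes of the plasma cluster without high levels of cycling markers. It was found in 35 of 44 and 9 of 18 LFD cells and in 281 of 330 and 17 of 30 HFD cells. Phlda1, a pleckstrin homology-like protein, stood at 139 and 25.1 in LFD and at 111 and 43.8 in HFD (log2 fold change 1.79, SE 0.25, edgeR adjusted p = 2.50e-10). Ly6k, a member of the Ly6 family of membrane-anchored proteins, went the other way, with 30.2 and 190 in LFD and 14.9 and 69.7 in HFD (log2 fold change -2.30, SE 0.25, edgeR adjusted p = 3.14e-17). Few cells carried it: 3 of 44 and 7 of 18 in LFD, 29 of 330 and 5 of 30 in HFD. For these 3 genes the counting intervals of the ratio lay on the same side of 1 in both libraries.

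Also higher in Ighv11-2-led cells were Egr1, an immediate early transcription factor (log2 fold change 1.42), Pld4, a nuclease of endolysosomes (1.31), Pik3cg, a catalytic subunit of phosphoinositide 3-kinase (1.08), Il10, an anti-inflammatory cytokine (1.01), Far1, an enzyme of ether lipid synthesis (0.84), Ptprc, which encodes CD45 (0.72), Ly6d (0.61), and the unnamed gene Gm42047 (1.38), which had no UMI in the other LFD cells and 65.6% of its UMIs of Ighv11-2-led LFD cells in 1 cell. Il10 was at 73.3 and 57.4 CPM in LFD, a ratio of 1.28 (0.717 to 2.40), and at 77.8 and 31.9 in HFD, a ratio of 2.44 (1.49 to 4.31). In the other LFD cells 75.0% of the Il10 UMIs lay in 1 cell, and Il10 was not called by DESeq2, on library sizes without immunoglobulin rows (edgeR adjusted p = 0.0582), with the marker gate (0.504), at 1 or more Ighv UMIs (0.0617) or with the mixed cluster (0.759). Ly6d was at 1645 and 815 in LFD but at 1077 and 1012 in HFD, where the ratio of 1.06 (0.972 to 1.17) was not distinguishable from 1. The same held for Ptprc in LFD (1.33, 0.920 to 1.95) and Gm42047 in HFD (1.65, 0.984 to 2.99).

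Lower in Ighv11-2-led cells were Atf3, a stress-induced transcription factor (log2 fold change -1.24), Slpi, a secreted protease inhibitor (-1.23), Atp1b1, a sodium pump subunit (-1.17), Isg15, an interferon-induced modifier (-0.88), Tmsb4x, an actin-binding peptide (-0.87), Glipr1 (-0.86), Ssu72, an RNA polymerase phosphatase (-0.75), Shisa5 (-0.69) and Cd52, a small surface glycoprotein (-0.59). Tmsb4x stood at 562 and 1435 CPM in LFD and 680 and 1036 in HFD, and Cd52 at 1291 and 2566 in LFD and 800.0 and 1034 in HFD, so at 3 or more Ighv UMIs the difference was larger in LFD for both. At 1 or more, the ratio of Cd52 was 0.776 (0.731 to 0.825) in LFD and 0.741 (0.712 to 0.772) in HFD, and that of Tmsb4x 0.407 (0.379 to 0.437) and 0.577 (0.555 to 0.599). The ratio was not distinguishable from 1 for Atf3 in LFD (0.687, 0.341 to 1.44) and Isg15 in HFD (0.758, 0.491 to 1.22). Slpi was lower only in LFD (ratio 0.119, 0.0934 to 0.150) and was higher in Ighv11-2-led cells of HFD (1.47, 1.13 to 1.94). Several of these genes rested on few cells: of the UMIs of the 18 other LFD cells, 75.0% for Isg15, 65.3% for Slpi, 64.3% for Atf3 and 52.9% for Atp1b1 lay in 1 cell. With each gene's top cell left out, 17 of the 23 genes were called again, and 6 were not. Of these 6, Gm42047 (1.36), Atp1b1 (-1.10) and Shisa5 (-0.58) kept a log2 fold change near that with all cells, while those of Atf3 (-0.79), Slpi (-0.38) and Isg15 (0.12) moved more. With plasma cells gated on their markers 11 of the 23 were called again, and with the mixed cluster 7 were. Egr1 then had log2 fold changes of 0.51 and 0.73, Slpi of -0.53 and -0.56 and Tmsb4x of -0.24 and -0.47, and none of these 3 genes was called in either setting.

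**Figure D5:**
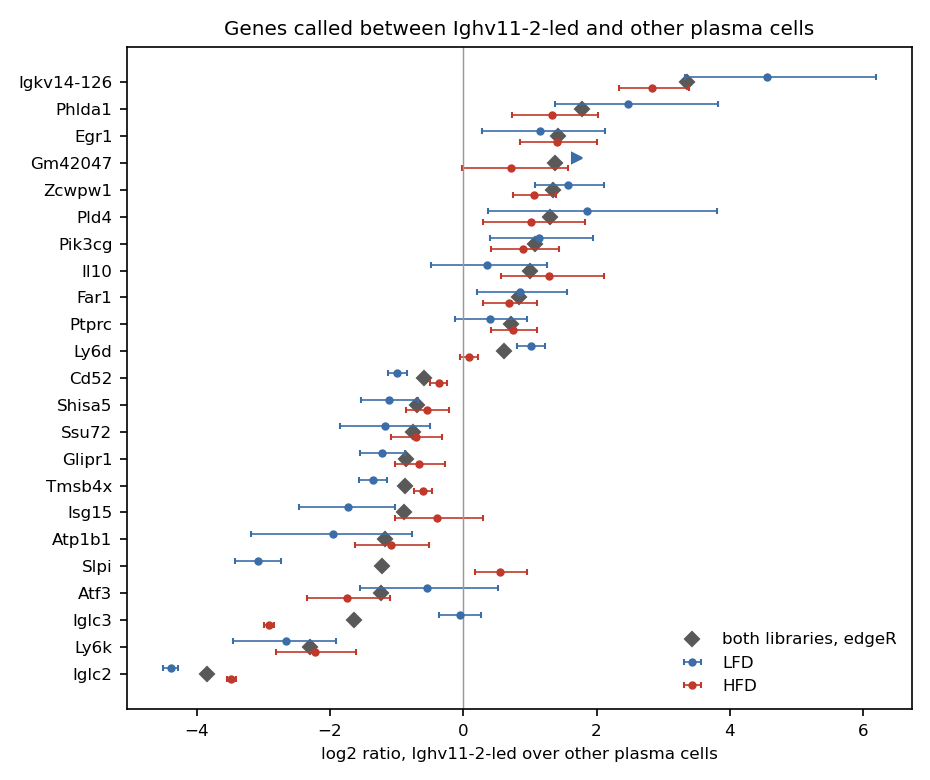
log2 ratio of Ighv11-2-led over other plasma cells (x axis) for the 23 genes called, in order of the edgeR estimate over both libraries (diamonds), with the ratio in each library and its 95% exact counting interval. The arrowhead marks the lower bound for Gm42047 in LFD, where the other cells had no UMI. Most genes lay on the same side of 0 in both libraries, while Slpi lay on opposite sides.

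The looser rule, with 119 and 95 LFD cells and 749 and 203 HFD cells, gave 23 higher (0.286%) and 45 lower (0.559%) of 8052 genes tested by the same edgeR test, with 727 (9.03%) at an unadjusted p under 0.05, and 14 of the 23 genes above were called again. Zcwpw1 and Egr1 were called with smaller log2 fold changes of 0.67 and 0.53, and Pld4, at 0.21, was not (edgeR adjusted p = 0.676). Isg15 turned to the other direction, with a log2 fold change of 0.55 and no call (edgeR adjusted p = 0.0617). Igkv4-91, the partner of Ighv12-3 and Ighv1-26, was lower in Ighv11-2-led cells there, with 1.63 against 24.7 CPM in LFD and 5.25 against 150 in HFD. Igha was lower as well, but 62.2% of its UMIs in the other LFD cells came from 1 cell. Xbp1, the transcription factor of the secretory programme, was higher, 2155 against 1548 in LFD and 2112 against 1826 in HFD (log2 fold change 0.46, edgeR adjusted p = 0.00106). It was the only call among 5 plasma cell factors tested, 3 of them higher and 2 lower. Of 12 endoplasmic reticulum secretion genes 11 were lower and 1 higher, with a median log2 fold change of -0.10. Igkc was higher, 220981 against 161916 and 229159 against 195675 (log2 fold change 0.46). Lambda outweighed kappa in 10 of 95 LFD and 21 of 203 HFD cells led by another gene and in none led by Ighv11-2. The part of those cells in the Igkc levels was not tested. Of 5 MHC class II genes tested, H2-Aa, H2-Ab1 and H2-Eb1 were lower, with log2 fold changes of -0.93, -0.53 and -0.53, and the median over the 5 was -0.53 against 0.00 over all genes tested. The summed B cell markers stood at lower levels in Ighv11-2-led cells of these groups, 508 against 632 CPM in LFD and 492 against 561 in HFD, as were the macrophage markers, 7.62 against 12.4 and 15.01 against 20.77, and their part in the MHC class II calls was not tested. Under the main rule no gene of that list was called, with H2-Ab1 at 77.6 and 147 CPM in LFD and 80.6 and 104 in HFD.

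Under the main rule none of 6 B-1 genes tested (Spn, Bhlhe41, Cd9, Ctla4, Plac8 and Arid3a, of 11 listed), 1 follicular B gene, 5 plasma cell factors, 12 endoplasmic reticulum secretion genes, 12 cell cycle genes and 6 receptor and homing genes was called. Of all genes tested 0.538% were called, so the absence of calls in lists this short says little about them. Under the looser rule 1 of 6 B-1, 1 of 12 secretion and 1 of 8 receptor and homing genes tested was called lower in Ighv11-2-led cells. Of all genes tested 0.559% were, and 1 call says little about a list. Plac8 of the B-1 list had a log2 fold change of -0.77 (edgeR adjusted p = 0.0311), against 1.36 under the main rule without a call. Herpud1, a component of protein degradation at the endoplasmic reticulum, had -0.38 (edgeR adjusted p = 0.00794), and the chemokine receptor Ccr10 had -3.19 (edgeR adjusted p = 0.000565). Cd5, a surface protein that marks part of the B-1 lineage, had 0.521 CPM or less in Ighv11-2-led cells of either library and was too low to test. Il10 was the gene called among 3 AHR and cytokine genes tested, with the losses given above, and none of 5 was called under the looser rule. Cyp1a1 itself was at 2.88 CPM in LFD and 0.521 in HFD Ighv11-2-led cells and was not tested. All 12 cell cycle genes had negative log2 fold changes, with a median of -0.24, but none passed, and under the looser rule 7 were positive and 5 negative with a median of 0.03. Of 5 light chain genes tested Igkv14-126 was called higher and Iglc2 and Iglc3 lower, and Ighm was not called (log2 fold change -0.13, edgeR adjusted p = 0.941).

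Markers of other cell types were low in all groups at 3 or more Ighv UMIs, apart from stromal and B cell markers. The summed level of 6 stromal markers was 318 CPM in Ighv11-2-led and 276 in other LFD cells, and 194 and 179 in HFD. Those of mesothelial cells were at 12.9 and 0 in LFD and 9.38 and 5.98 in HFD, of endothelial cells at 11.5 and 21.5 and at 18.1 and 23.9, and of macrophages at 11.5 and 7.18 and at 11.8 and 1.99. The 8 T cell and innate lymphoid markers were at 1.44 and 25.1 in LFD and 7.99 and 1.99 in HFD, and the 10 B cell markers at 494 and 581 and at 493 and 460. The part of these levels in the calls was not tested.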

How the data were processed

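Single-cell RNA-seq was available for 2 samples, eYFP+ SVF cells of gWAT from mice on LFD and on HFD (1 library each). Raw UMI counts of each barcode were deposited as sparse matrices, made by the authors with Cell Ranger 4.0.0 from the 10x Genomics 3′ v3 kit. Other deposited files gave gene and barcode names. The submitters' processing notes name mm10, Seurat 4.1.0 and bcl2fastq 2.17.1.14. All members, lists and tests were chosen with earlier results of these data known.

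Cells with 500 to 40000 UMIs and under 12.5% mitochondrial UMIs were kept. The LFD matrix held 114311020 UMIs in 11281 barcodes and the HFD matrix 119498750 in 9631. Cells were clustered (leidenalg 0.10.2, resolution 0.5, 20 clusters) on 2000 variable genes and 30 principal components without the 392 immunoglobulin rows, with no doublet removal. Clusters were named from listed markers, and the limit on markers of other types was set after seeing the clusters. All 185 Ighv rows matched GENCODE M21. Shares had exact Clopper-Pearson intervals and ratios of UMI levels exact conditional binomial intervals. The Ighv11-2 contrast used edgeR 4.0.16 (TMM, filterByExpr, quasi-likelihood test, R 4.3.3) on 4 sums, with DESeq2 as an alternative. Ighv genes were named if among the 10 leading most plasma or B cells of a library (the tied B cell leads of 1 cell are given as a count), and contrast genes if called, at most 15 per direction. Iglc1 per cell was examined after its values were seen, and further genes were named from the listed gene groups. On simulated data for this contrast (4319 genes), 34 of 92 genes changed 2-fold and 75 of 91 changed 3-fold were recovered, with 5 false calls. The simulation gave every gene the same dispersion and the same change in both libraries. It held no genes with most UMIs in 1 cell, so its false calls need not carry over to these data. The planned promoter motif is not analysed here.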

Additional observations from a re-analysis of the deposited data

Results flagged for a closer look

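With 1 library per diet the difference between diets in the contrast of Ighv11-2-led with other plasma cells was not tested. Genes of the lists and of the calls are given here where the counting intervals of the ratio lay above 1 in one library and below 1 in the other. Slpi had a log2 ratio of -3.07 in LFD and 0.55 in HFD, and of -1.91 and 0.35 at 1 or more Ighv UMIs. In the other LFD cells 65.3% of the Slpi UMIs came from 1 cell, and in the other HFD cells 55.9%. Iglc1 had a log2 ratio of -1.13 in LFD and 1.03 in HFD, and of -3.58 and 1.33 at 1 or more Ighv UMIs. Its level was 781 CPM in Ighv11-2-led and 1708 in other LFD cells, and 31171 and 15285 in HFD, and a single cell held 48.1% and 43.9% of the UMIs of the other cells but 1.96% of those of the HFD cells led by Ighv11-2. At 3 or more Ighv UMIs only, the protein folding factors Hspa5, Hsp90b1 and Pdia4 had log2 ratios of 0.76, 0.28 and 0.74 in LFD and of -0.43, -0.30 and -0.26 in HFD. For Hspa5, 24.0% of the UMIs of the Ighv11-2-led and 32.4% of those of the other LFD cells came from 1 cell. Tnfrsf13b, a receptor for the survival factors BAFF and APRIL, had -0.65 and 0.45. None of Iglc1, Hspa5, Hsp90b1, Pdia4 and Tnfrsf13b was called over both libraries.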

How the results depend on the processing

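The share of assigned plasma cells led by Ighv11-2 and the effective number stayed within counting error or 1.5 times, respectively, with a leading gene of at least 80%, a marker gate per cell, doublet scores removed, at least 100 genes per cell, cluster resolution 1.0 and the mixed cluster added. Subtracting free RNA, far below 1 UMI per cell, could not change a leading gene at this minimum and says nothing here. At 10 or more Ighv UMIs the share was 100% in both libraries and the LFD effective number 1.00. Without Mki67 or Top2a UMIs the LFD share was 57.9% (11 of 19 cells). At 1 or more UMIs the shares were 55.6% and 78.7% and the LFD effective number 3.13, and after thinning the HFD share was 82.8%.

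The 11 higher and 12 lower genes became 2 and 2 with DESeq2 (Igkv14-126, Zcwpw1, Iglc2 and Ly6k), 3 and 3 without Mki67 or Top2a UMIs (814 genes tested) and 23 and 45 at 1 or more UMIs. The lower genes numbered 4 with the mixed cluster and 7 with each gene's top cell left out. Other counts stayed within 1.5 times: 11 and 18 on library sizes without immunoglobulin rows, 11 and 16 with no filter, 13 and 13 without high doublet scores and 15 and 9 with the marker gate. The genes called were not always the same: of the 23, 4 were called again with DESeq2, 22 on library sizes without immunoglobulin rows, 18 with no filter, 23 without high doublet scores, 11 with the marker gate, 7 with the mixed cluster, 14 at 1 or more UMIs and 3 of 15 tested without Mki67 or Top2a UMIs. With no filter the median log2 fold change over all genes was 0.23. Iglc3 turned to 0.25 and Tmsb4x to 0.40 without Mki67 or Top2a UMIs, Isg15 to 0.55 at 1 or more UMIs and 0.12 without its top cell, and Slpi to 0.55 without the LFD library (-3.07 without the HFD library). Zcwpw1 moved from 1.35 to 3.40 without Mki67 or Top2a UMIs, where only 8 LFD and 4 HFD cells were led by another gene. Apart from the top cell, the cause was not tested. At 10 or more UMIs no cell was led by another gene, so the contrast was not run, and B cells gave no leading gene for it. With 1 library left there is a ratio but no test. The contrast matched the groups within each library. No paired analysis was possible because there was 1 library per diet, with no numbered replicates to match between diets. Few Ighv UMIs per cell and 18 and 30 cells led by other genes limit all of this. The looser rule, the mixed cluster, the thinning and the top cell setting were chosen after seeing the data.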
